A study of Mus musculus with 4 samples.

Results

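The 10 genes described here were listed as markers of the formative and primed states of pluripotency. Pou5f1, Sox2 and Utf1 among them are not specific to those states. The 10 genes were taken by symbol from the gene count table of WT and Rest-/- mouse embryonic stem cells (ESCs). They are Fgf5, Otx2, Pou3f1, Lef1, Zic2, Sox3, Cdh2, Pou5f1, Sox2 and Utf1. These are 10 of the 26301 genes with an identifier, and all 10 passed the filter on low counts. The study used RNA-seq to ask how loss of the repressor REST alters transcription in ESCs. It compared 2 biological replicates of the N6 line (WT) with 2 of the N8 line (REST -/-), both grown with LIF and serum on irradiated mouse embryonic fibroblasts, which were depleted by passage on gelatin before harvest. Each genotype was 1 line, so genotype and line cannot be told apart.

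Mouse ESCs kept in LIF and serum move between a naive state, which resembles the inner cell mass, and a state nearer to the early epiblast. On leaving the naive state, cells retain the transcription factors Oct4 (encoded by Pou5f1) and Sox2, lower naive factors such as Rex1 (encoded by Zfp42), and raise formative factors such as Otx2 and Oct6 (encoded by Pou3f1). Fgf5 is the classic transcript of the epiblast before gastrulation, and a move from E-cadherin to N-cadherin (encoded by Cdh2) accompanies later lineage entry.

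Across the 15444 genes tested, edgeR's quasi-likelihood test called 9 genes (adjusted p under 0.05), a background of 0.0583%, and none of the 10 members was among them. At an unadjusted p under 0.05 the count was 1 of 10, Lef1, against 6.71% of all genes tested. Pou5f1, Sox2 and Utf1 stood at 340 to 751 CPM (counts relative to library size after TMM scaling in edgeR) in every library, with folds near 1. On the fold scale the widest difference was that of Lef1, a nuclear effector of Wnt signalling, at 3.33 ± 0.590 CPM in WT and 10.6 ± 6.83 CPM in Rest-/- ESCs (SD, n = 2 each). Both Rest-/- libraries lay above both WT libraries for 4 of the 10 genes, Pou3f1, Lef1, Cdh2 and Utf1, which was the case for 16.5% of all genes tested. Both lay below for Zic2 alone, against 15.4% of all genes tested. The study's methods name edgeR with tag-wise and common dispersion but no test. With edgeR's exact test under common dispersion, Lef1 was the 1 member called (adjusted p = 0.00612), and 2.22% of all genes were called. The same test also called 6 of the 12 tested feeder fibroblast markers. Under tag-wise dispersion (1.77% of all genes called) and with DESeq2 (1.54%), 0 of the 10 were called.

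Library totals ran from 22293966 to 30953863 counts, and 3 counts, taken as the detection floor, correspond to 0.0969 to 0.135 CPM. The lowest count of any member was 33, for Fgf5. Rest itself was at 255 and 233 CPM in WT replicates and at 164 and 176 CPM in Rest-/- replicates (log2 fold change -0.52, standard error 0.13, edgeR adjusted p = 0.526). Counts over the whole gene do not show which exons were read, so they do not check the deletion. All 10 fixed ESC markers, with Pou5f1, Sox2 and Utf1 among them, were above the floor in every library, with summed levels of 5159 to 5971 CPM. Of the 10 markers, Lin28a had the highest log2 fold change (0.38) and Zfp42 the lowest (-1.36), and neither passed the threshold. In bulk RNA, fewer cells that express a gene and less RNA per cell cannot be told apart.

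REST acts through the RE1 element, so the DNA around the members was searched for it. In mm9 (NCBIM37), the left arm CAGCACC and the right arm GGACAG of RE1, on the same strand and 2 bases apart, were found at 623 places on both strands. No start site of the 10 members lay within 20 kb of one, and only 2.34% of the 14214 tested genes with a position had a start that close. The nearest match was 116 kb from a start of Utf1, and that of Lef1 was 3029 kb away. The search took these exact letters only, whereas the study found complete or partial RE1 motifs at regions bound by REST. Other forms of RE1 were therefore missed, and REST binding near the members was not examined here. RefSeq (GRCm38.p6) promoter windows were held for 6 of the 10 genes, and windows for Pou3f1, Zic2, Sox3 and Cdh2 were not used here. The 250 bases before the most upstream start are shown for Lef1, which had the largest fold between genotypes, and for Pou5f1, the most abundant member. The Lef1 window is chr3:131110047-131110296 and the Pou5f1 window is chr17:35505782-35506031, both on the plus strand and printed 5′ to 3′. Capitals mark a match to a searched motif.
Lef1: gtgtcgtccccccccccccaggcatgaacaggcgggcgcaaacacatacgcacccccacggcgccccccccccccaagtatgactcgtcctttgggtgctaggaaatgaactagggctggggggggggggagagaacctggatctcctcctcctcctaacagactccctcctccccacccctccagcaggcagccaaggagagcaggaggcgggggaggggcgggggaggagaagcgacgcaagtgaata
Pou5f1: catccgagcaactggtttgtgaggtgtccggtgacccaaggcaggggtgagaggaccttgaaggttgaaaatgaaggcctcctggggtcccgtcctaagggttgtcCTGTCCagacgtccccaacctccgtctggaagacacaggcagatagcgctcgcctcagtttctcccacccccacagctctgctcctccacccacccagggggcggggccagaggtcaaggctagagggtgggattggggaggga

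The motifs searched on both strands were the POU octamer ATGCAAAT, the SOX core ACAAAG, the TCF/LEF core CTTTGAT and each RE1 arm alone. The reverse of the TCF/LEF core and the SOX core share letters, but no position can match both. The Pou5f1 window held the right arm GGACAG on the minus strand, from 144 to 139 bases before the start, and the Otx2 window held it from 154 to 149 bases before. That arm occurred in 18.7% of all 32851 promoter windows. The SOX core occurred in the windows of Fgf5 and Sox2 and in 16.5% of all windows. Lef1 and Utf1 had no match to any of these motifs. The Lef1 window was 66.4% G or C with 11 CpG dinucleotides, and that of Pou5f1 was 62.0% with 8. The median over all windows was 52.4% with 6. A match is a description of letters and not of binding.

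Pou5f1, which encodes Oct4, lies on chromosome 17 of mm9 from 35642982 to 35647721. WT replicates 1 and 2 had 669.8 and 704.9 CPM, and Rest-/- replicates 1 and 2 had 701 and 751 CPM. The genotypes overlapped, and the log2 fold change was 0.08 (standard error 0.12, 95% interval -0.24 to 0.40, edgeR adjusted p = 1.00). The interval leaves out any change of 1.5-fold or more. RefSeq names several processed copies of Pou5f1, and how reads shared with them were counted is not given in the sources used here.

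Sox2, the SOX partner of Oct4 at many enhancers, occupies chromosome 3 from 34548927 to 34551383 as a single exon within the span of the Sox2ot gene, with which it shares no annotated exon bases. Its levels were 477 and 418 CPM in WT and 406 and 428 CPM in Rest-/- ESCs. These ranges overlapped, with a log2 fold change of -0.10 (standard error 0.13, 95% interval -0.45 to 0.25). Utf1, a chromatin-associated factor of undifferentiated cells, lies on chromosome 7 from 147129688 to 147131011. It had 340 and 390.3 CPM in WT and 396 and 436 CPM in Rest-/- ESCs. Both Rest-/- libraries were the higher ones, by 0.19 on the log2 scale (standard error 0.14, 95% interval -0.18 to 0.56, edgeR adjusted p = 1.00). With each library left out in turn it lay between 0.09 and 0.29.

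**Figure D1:**
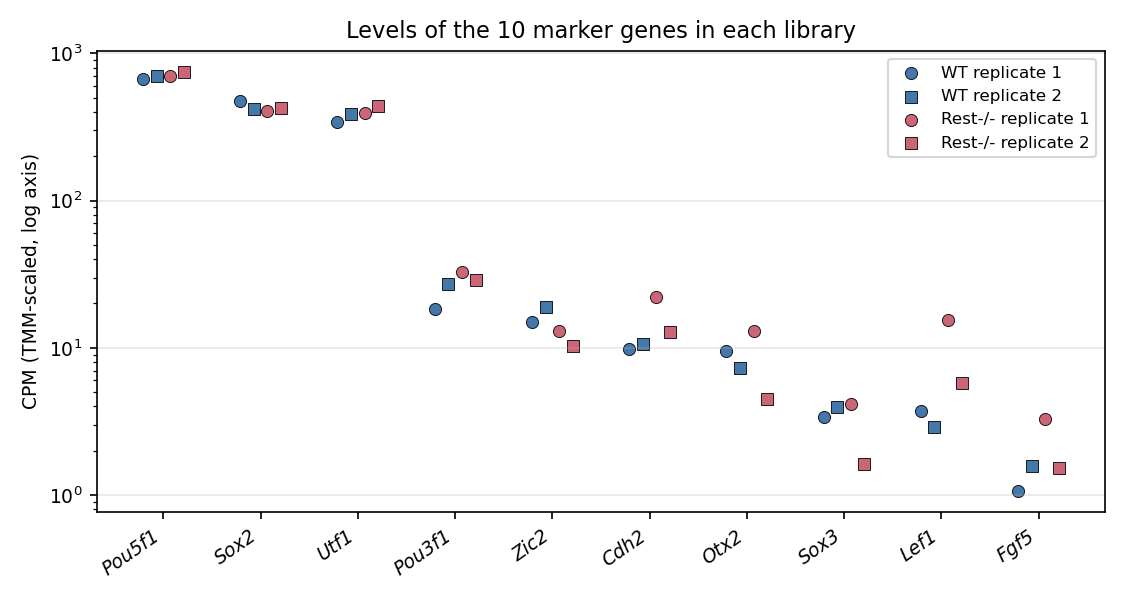
Levels of the 10 genes in CPM on a log axis, ordered by their WT mean, with 1 point for each of the 4 libraries. Pou5f1, Sox2 and Utf1 sit between 340 and 751 CPM, and the other 7 genes at 32.5 CPM or below.

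The formative transcription factors were expressed at far lower levels, and none of them passed the threshold. Pou3f1 encodes the POU factor Oct6 and is a single exon on chromosome 4 from 124334896 to 124337899. It was at 18.5 and 27.1 CPM in WT and at 32.5 and 28.9 CPM in Rest-/- ESCs. The Rest-/- libraries were both higher, but the gap from the upper WT library to the lower Rest-/- library was small beside the distance between the WT libraries. The log2 fold change was 0.43 (standard error 0.25, 95% interval -0.24 to 1.10, edgeR adjusted p = 0.987). Leaving out WT replicate 1 gave 0.17, and leaving out WT replicate 2 gave 0.73.

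Otx2, a homeodomain factor of the epiblast and anterior neural plate, lies on chromosome 14 from 49277354 to 49287319. Its libraries were at 9.46 and 7.32 CPM in WT and at 13.0 and 4.51 CPM in Rest-/- ESCs. The Rest-/- libraries held both the highest and the lowest value. The log2 fold change of 0.06 (standard error 0.56, 95% interval -1.41 to 1.54) therefore had a wide interval, and its sign depended on the library, at -0.89 without Rest-/- replicate 1 and 0.63 without Rest-/- replicate 2.

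Zic2, a zinc finger factor that acts at enhancers in ESCs and later in neural development, lies on chromosome 14 from 122874604 to 122879074. It was at 14.9 and 18.8 CPM in WT and at 13.0 and 10.2 CPM in Rest-/- ESCs. Both Rest-/- libraries were lower, with a log2 fold change of -0.54 (standard error 0.26, 95% interval -1.22 to 0.15, edgeR adjusted p = 0.888). With each library left out in turn it ran from -0.71 to -0.36. Its neighbour and paralog Zic5 had a log2 fold change of -0.68 with both Rest-/- libraries lower. Neither Zic2 nor Zic5 passed the threshold.

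Sox3, a SOXB1 factor like Sox2 and an early marker of neural fate, is a single exon on the X chromosome from 58144545 to 58146605. It was at 3.39 and 3.96 CPM in WT and at 4.14 and 1.63 CPM in Rest-/- ESCs. Rest-/- replicate 2 was low and the other 3 libraries lay close together, so the genotypes overlapped. The log2 fold change was -0.34 (standard error 0.52, 95% interval -1.73 to 1.04), and it was 0.17 without Rest-/- replicate 2 and -1.17 without Rest-/- replicate 1. Over the 542 tested X-linked genes the median was -0.40 on the log2 scale, and 84.5% of them were lower in Rest-/- ESCs, against 48.9% of the 13670 autosomal genes. The part of this X-wide shift in the Sox3 value was not tested.

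Fgf5, the secreted FGF of the epiblast, lies on chromosome 5 from 98683203 to 98706049 and was the lowest of the 10 genes. The WT replicates gave 33 and 42 reads on the gene and the Rest-/- replicates 85 and 34, or 1.07 and 1.57 CPM against 3.29 and 1.53 CPM. Only Rest-/- replicate 1 stood apart, and the other 3 libraries lay between 1.07 and 1.57 CPM. The log2 fold change was 0.88 (standard error 0.52, 95% interval -0.50 to 2.25, edgeR adjusted p = 0.989), with 0.23 when Rest-/- replicate 1 was dropped and 1.32 when Rest-/- replicate 2 was.

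Lef1 is the DNA-binding partner of beta-catenin and lies on chromosome 3 from 130813389 to 130927274. The WT replicates gave 116 and 78 reads and the Rest-/- replicates 399 and 128, or 3.75 and 2.91 CPM against 15.4 and 5.78 CPM. Both Rest-/- libraries were higher, and they differed from each other more than either WT library differed from the lower Rest-/- library on the CPM scale. The fold was 3.19, a log2 fold change of 1.67 (standard error 0.55, 95% interval 0.21 to 3.13, edgeR adjusted p = 0.690). It was 0.80 without Rest-/- replicate 1 and 2.21 without Rest-/- replicate 2.

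Cdh2 encodes N-cadherin, the adhesion molecule of neural and mesenchymal cells, and lies on chromosome 18 from 16747386 to 16967755. It was at 9.88 and 10.6 CPM in WT and at 22.0 and 12.8 CPM in Rest-/- ESCs. The WT libraries were close together and both Rest-/- libraries were above them, replicate 1 by the wider margin. The log2 fold change was 0.77 (standard error 0.33, 95% interval -0.11 to 1.65, edgeR adjusted p = 0.828), with 0.33 and 1.10 when Rest-/- replicate 1 or replicate 2 was left out. E-cadherin (Cdh1) stood at 604 to 802 CPM in all libraries, with a log2 fold change of 0.08.

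**Figure D2:**
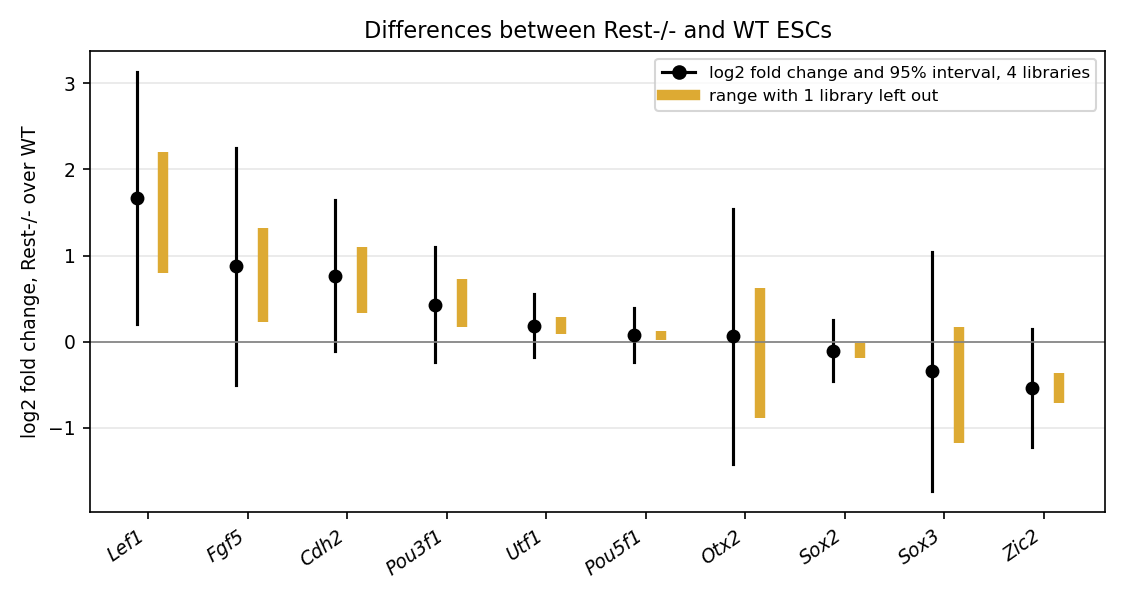
Log2 fold changes of the 10 genes, Rest-/- over WT, from edgeR's quasi-likelihood fit (black points) with 95% intervals, beside the range when each of the 4 libraries was dropped in turn (yellow bars). Only the Lef1 interval lies above 0, and the yellow bars of Otx2 and Sox3 cross 0.

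Per kilobase of the longest coding transcript, the WT order of levels was Pou5f1 at 510 ± 18.4 CPM per kb, Utf1 at 298 ± 29.3 and Sox2 at 182 ± 16.8 (SD, n = 2 each). The next gene, Pou3f1, was at 7.59 ± 2.04 CPM per kb, followed by Zic2 at 6.44 ± 1.06, and the libraries of these neighbours overlapped. Otx2 came next at 3.67 ± 0.665 CPM per kb, then Cdh2 at 2.11 ± 0.0995 and Sox3 at 1.78 ± 0.194. Lef1 at 0.956 ± 0.170 and Fgf5 at 0.527 ± 0.142 CPM per kb closed the order. In Rest-/- ESCs Lef1, at 3.05 ± 1.96 CPM per kb, stood above Sox3 at 1.40 ± 0.863, and the libraries of the 2 genes overlapped. By mean CPM in WT ESCs, 97.2% to 99.1% of the genes tested lay below Pou5f1, Sox2 or Utf1, but 14.1% below Fgf5 and 24.2% below Lef1.

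Of the 10 genes, 6 were highest in Rest-/- replicate 1, namely Fgf5, Otx2, Pou3f1, Lef1, Sox3 and Cdh2, and 23.2% of all genes tested were highest there. Within the Rest-/- genotype, replicate 1 exceeded replicate 2 by 2.88-fold for Otx2, 2.67-fold for Lef1, 2.55-fold for Sox3, 2.14-fold for Fgf5, 1.72-fold for Cdh2, 1.27-fold for Zic2 and 1.12-fold for Pou3f1. For Pou5f1, Sox2 and Utf1 the same ratio was 0.908 to 0.949. In WT the ratio of replicate 1 to replicate 2 lay between 0.680 and 1.29 for all 10 genes. The same library had the most RNA of feeder fibroblast markers, since the 14 listed markers summed to 42.2 and 32.4 CPM in WT and to 123 and 31.2 CPM in Rest-/- ESCs. Of the 12 tested fibroblast markers, 11 were highest in Rest-/- replicate 1, and Col1a1 was at 46.1 CPM there against 6.42 to 11.8 CPM in the other libraries. Postn had the highest log2 fold change of these markers (2.35) and Thy1 the lowest (-0.18), and neither passed the threshold. The median log2 fold change of the 12 was 1.60. The 2 listed markers that did not pass the filter were Lum, at 0 counts in every library, and Dcn, at no more than 0.187 CPM in any. The part of fibroblast RNA in the levels of the 6 genes was not tested.

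**Figure D3:**
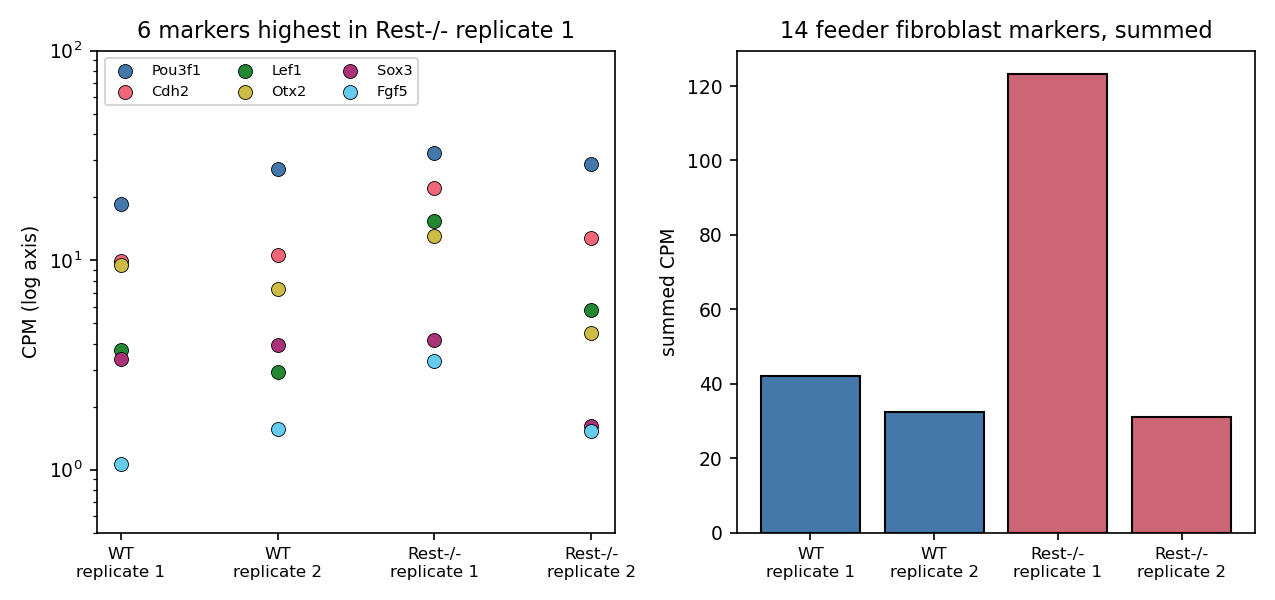
Left, levels in CPM on a log axis of the 6 genes that were highest in Rest-/- replicate 1, with 1 point per library. Right, summed CPM of the 14 feeder fibroblast markers in each library (blue WT, red Rest-/-), which reached 123 in Rest-/- replicate 1 and 31.2 to 42.2 in the other 3.

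Genes of the same state, pathway or family were read from the same fit, and the quasi-likelihood test called none of the listed genes. Fewer genes passed it than the other tests. Calls by edgeR's exact test with tag-wise dispersion (1.77% of all genes tested) and by DESeq2 (1.54%) are therefore given where there were any. The FGF list holds Fgf5, the TCF/LEF list Lef1, the cadherin list Cdh2, and the paralog list Sox2, Sox3, Pou3f1, Zic2 and Otx2. These members are thus counted again in those lists. At an unadjusted p under 0.05, the quasi-likelihood test counted 4 of 12 FGF genes, 4 of 11 TCF/LEF and Wnt genes, 1 of 11 cadherins and catenins, 0 of 9 paralogs, 2 of 11 germ layer genes, 4 of 12 primitive endoderm markers and 2 of 12 fibroblast markers, beside 6.71% of all genes. Of 20 other formative and primed genes, all tested, 13 were on the higher and 7 on the lower side, with a median log2 fold change of 0.21 against -0.0047 over all genes tested. Both Rest-/- libraries lay above both WT libraries for 6 of the 20 (16.5% of all genes tested) and below them for 3 (15.4%). The median of the 10 members was 0.13, with 7 above 0 and 3 below. The highest of the 20 was Fgf15, an FGF of the epiblast and neural plate, at 3.71 and 4.55 CPM in WT and 9.37 and 11.9 CPM in Rest-/- ESCs (log2 fold change 1.36, edgeR adjusted p = 0.421). It was called by DESeq2 and by the exact test with tag-wise dispersion. At an unadjusted p under 0.05 the quasi-likelihood test counted 3 of 20. The lowest was Zic5.

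Of 18 naive state genes, 12 were on the lower side, with a median of -0.26. Both Rest-/- libraries lay below both WT libraries for 8 of the 18, against 15.4% of all genes tested, and above them for 2, Klf5 and Gbx2, against 16.5%. At an unadjusted p under 0.05 the quasi-likelihood test counted 9 of 18, against 6.71% of all genes tested. Klf5 and Gbx2 were among the 9, on the higher side. The lowest was Zfp42, at 705 and 541 CPM in WT and 258 and 226 CPM in Rest-/- ESCs (log2 fold change -1.36, edgeR adjusted p = 0.179). DESeq2 called 3 of the 18, all lower (Zfp42, Klf2 and Fgf4), against 1.54% of all genes tested. The exact test with tag-wise dispersion called these 3 and Tcl1, against 1.77% of all genes tested. The highest was Gbx2, a homeobox gene downstream of LIF, with a log2 fold change of 0.90.

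In the FGF list of 12 genes, 9 were on the higher side, with a median of 0.33. Fgf15 was again the highest, and the lowest was Fgf4, the FGF secreted by naive cells, at 255 and 266 CPM in WT against 120 and 144 CPM in Rest-/- ESCs (log2 fold change -0.98, edgeR adjusted p = 0.215). DESeq2 and the exact test with tag-wise dispersion each called 1 gene higher, Fgf15, and 1 lower, Fgf4. Fgf4 was thus far more abundant than Fgf5 in both genotypes on the CPM scale. Around Lef1, 11 of 12 TCF/LEF factors and Wnt targets were tested, 6 on the higher and 5 on the lower side, with a median of 0.03. Both Rest-/- libraries lay above both WT libraries for 4 (16.5% of all genes tested) and below them for 1 (15.4%). The 4 were Lef1, Sp5, Cdx1 (log2 fold change 1.54) and Axin2 (0.71), which were also the 4 at an unadjusted p under 0.05. Sp5, a direct target of Wnt signalling, was the highest, at 1.55 and 0.933 CPM in WT and 6.35 and 4.92 CPM in Rest-/- ESCs (log2 fold change 2.17, edgeR adjusted p = 0.332). It was called by DESeq2 and by both exact tests. The lowest was Nkd1, an inhibitor of the pathway, at -0.25. The exact test under common dispersion called Cdx1 besides Lef1 and Sp5 (2.22% of all genes tested). The factors Tcf7, Tcf7l1 (Tcf3 in the count table) and Tcf7l2 had log2 fold changes from -0.09 to 0.03.

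Among 11 tested cadherins and catenins, 9 were on the higher side, with a median of 0.12. Cdh11, a cadherin of mesenchymal cells, was highest at 1.41 (standard error 1.22). It was at 1.36 and 0.261 CPM in WT and 3.87 and 0.451 CPM in Rest-/- ESCs, so the genotypes overlapped. P-cadherin (Cdh3) was lowest at -0.36. Of the 15 SOXB1, POU, ZIC and OTX genes, 9 were tested, with a median of -0.01, Pou3f1 highest and Zic5 lowest. The other 6 (Pou3f2, Pou3f3, Pou3f4, Zic1, Zic4 and Otx1) did not pass the filter on low counts.

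Germ layer genes give the background of cells beyond the primed state. Of 15 listed, 11 were tested, with 8 on the higher side and a median of 0.09. Brachyury (T), the mesoderm factor, was highest, at 1.13 and 0.448 CPM in WT and 14.9 and 5.33 CPM in Rest-/- ESCs (log2 fold change 3.66, edgeR adjusted p = 0.405), and it too was highest in Rest-/- replicate 1. It was called by DESeq2 and by both exact tests. The neural factor Pax6 was lowest at -0.75. The 12 primitive endoderm markers summed to 289 and 494 CPM in WT and 591 and 726 CPM in Rest-/- ESCs. Most of each sum came from the laminin and collagen genes Lama1, Lamb1, Col4a1 and Col4a2, with Lamb1 alone at 129 to 281 CPM. The transcription factors Gata4, Gata6, Sox7, Sox17, Hnf4a and Foxa2 were each at 9.16 CPM or below in every library. All 12 were tested, with 11 on the higher side and a median log2 fold change of 0.71, and for 8 both Rest-/- libraries lay above both WT libraries, against 16.5% of all genes tested. Gata6 was highest at 2.26 and Hnf4a, the 1 gene on the lower side, was at -2.49. DESeq2 called Pdgfra higher and Hnf4a lower, and both exact tests called Gata6 besides. None of these 12 was at 0 in any library, and their part in the members' values was not tested.

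**Figure D4:**
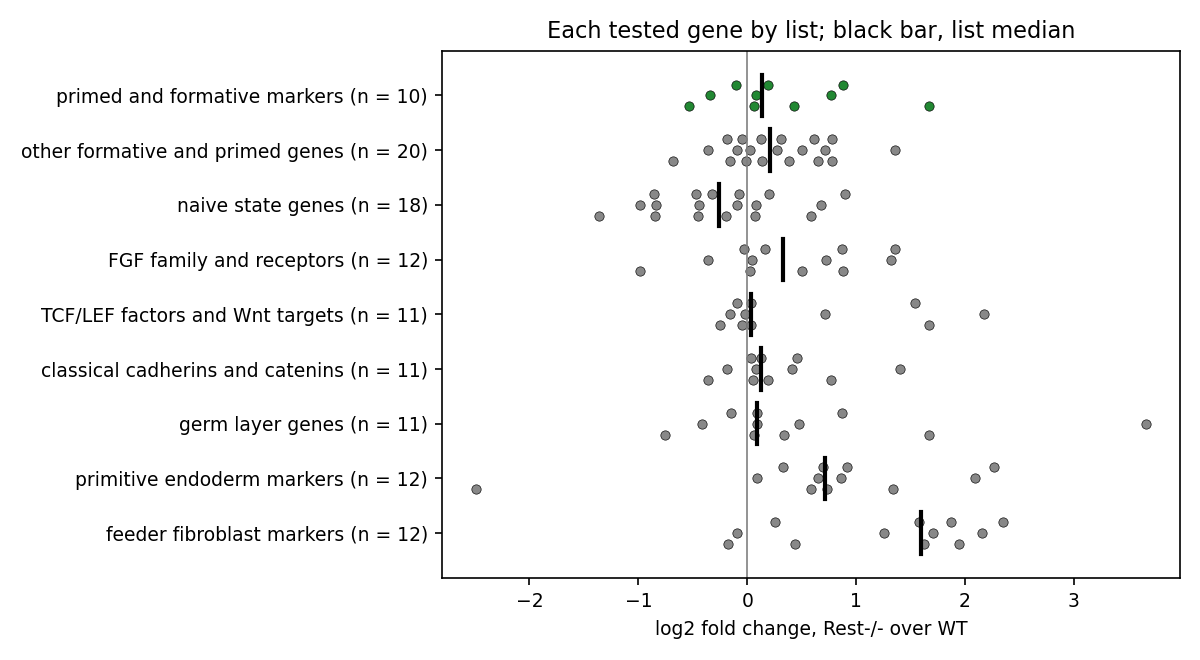
Log2 fold changes, Rest-/- over WT, of each tested gene in the 10-gene set (green) and in 8 other lists (grey), with a black bar at each list's median. The FGF, TCF/LEF and cadherin lists also hold Fgf5, Lef1 and Cdh2. The medians are 0.13 for the 10 genes, 0.21 for the other formative and primed genes, -0.26 for the naive genes and 1.60 for the feeder fibroblast markers.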

How the data were processed

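RNA was measured in 4 libraries, 2 of WT and 2 of Rest-/- ESCs. According to the study's methods, the authors prepared TruSeq libraries, aligned them by Subread and counted per gene by featureCounts. The submitters' processing notes name mm9, and versions and the strand setting are not given in the sources used here. The deposited values are whole-number counts per Entrez gene without normalization. The 368 rows without an identifier held no values and were left out.

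Counts were analysed in R 4.3.3 with edgeR 4.0.16 (filterByExpr, TMM, quasi-likelihood test without a block, prior count 0.125, Benjamini-Hochberg adjusted p under 0.05 over all 15444 genes tested). CPM are counts relative to the scaled library size, and intervals are 95% intervals of the fit. Replicates were labelled biological, and their counts differed beyond sampling noise. The fit was also run on simulated counts, drawn independently for each library and so without a factor shared by same-numbered libraries. Gene lengths and coordinates were read from GENCODE M1 (NCBIM37, mm9), and 24191 identifiers matched a RefSeq symbol. Alternatives were scaling by RLE, by upper quartile or by library size, 2 other filters, DESeq2 1.42.0, edgeR's exact tests, the replicate block, a prior count of 2 and each library left out. The members and lists were chosen with earlier results of these data known. The genes named are the 10 members, Rest, and the highest and lowest tested gene of each list. Cdh1, Col1a1, Dcn, Lum, Klf2, Klf5, Tcl1, Tcf7, Tcf7l1, Tcf7l2, Axin2 and Cdx1 were named after their values were seen. So were Pdgfra, Lama1, Lamb1, Col4a1, Col4a2, Gata4, Sox7, Sox17, Foxa2 and the paralogs that did not pass the filter.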

Additional observations from a re-analysis of the deposited data

How the results depend on the processing

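Over 140 refits of the 10 genes (14 settings each), 132 kept their direction and their side of the threshold, 4 reversed and 4 passed the threshold. The reversals were Otx2 with the replicate number as a block (-0.060), Otx2 without WT replicate 2 (-0.11) and without Rest-/- replicate 1 (-0.89), and Sox3 without Rest-/- replicate 2 (0.17). With each library left out, Otx2 ran from -0.89 to 0.63 and Sox3 from -1.17 to 0.17. The median over the 10 genes was 0.12 to 0.34 under the 13 settings that refit it, which leave out the prior count of 2. The number of genes called over the whole table was 53 with no filter beyond 1 count, 3 with at least 10 counts in every library, 238 with DESeq2, 274 with the exact test under tag-wise and 343 under common dispersion, and 60 to 113 with 1 library left out, against 9. With a library left out, the lone library of its genotype was assumed to vary like those of the other. Among the members, 1 was called under common dispersion and 0 with any library left out. The cause of these differences was not tested.

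With the replicate block, 2621 genes were called, 16.97% of those tested, and 3 members were among them, Lef1 (log2 fold change 1.57, adjusted p = 0.00588), Cdh2 (0.73, adjusted p = 0.0420) and Utf1 (0.19, adjusted p = 0.0374), all from edgeR's quasi-likelihood test. The labels do not say that same-numbered libraries were paired. Across genes, the differences of replicate 1 from replicate 2 in WT and in Rest-/- ESCs had a Pearson's r of 0.81. The cause of this correlation was not tested. With 2 libraries per genotype, the intervals of Fgf5, Otx2, Lef1 and Sox3 each spanned more than 2 on the log2 scale from their lower to their upper bound.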
